A study of Mus musculus with 8 samples.

Results

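The 8 genes described here, Mybl1, Mybl2, Rfx2, Crem, Tcfl5, Sox30, Tbpl1 and Meig1, are regulators and effectors of the spermatocyte and spermatid stages of spermatogenesis. They were picked by symbol from the expression table, which lists 22744 genes, and all 8 were in it and passed the filter on low values. The expression data were whole-testis RNA libraries from mice on a C57BL/6 background at postnatal day 8 (P8), 3 Dmrt6 null and 3 wild type. The binding data were 14862 peaks called from adult wild-type testis (background labelled C57BL/6, Mixed), where 1 library came from chromatin immunoprecipitation (ChIP) with rabbit antibodies against DMRT6 and 1 was the input. The labels do not describe the null allele. Dmrtb1 is the gene symbol under which Dmrt6, a DMRT family transcription factor gene, is listed, and the study's title places the protein at the change from the mitotic to the meiotic programme.

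Spermatogenesis runs in waves, and the first wave in the mouse testis reaches its stages in order. Spermatogonia divide and differentiate, enter meiosis as spermatocytes, pass through a long pachytene stage with heavy transcription, and then form haploid spermatids. At P8 the tubules hold Sertoli cells and spermatogonia, with meiosis about to begin, so pachytene spermatocytes and spermatids have not yet formed. In adult mice, MYBL1 (A-MYB) and TCFL5 act in spermatocytes, CREM, RFX2, SOX30 and TBPL1 act largely in spermatids, and MYBL2 (B-MYB) serves dividing cells. MEIG1 is not a transcription factor: it acts at the manchette, the microtubule structure that shapes the sperm head and carries tail proteins.

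Promoter sequence is shown for 4 of the genes, as these show members with a DMRT6 peak near the start (Sox30), deeper in the gene (Mybl2, Rfx2) and at no nearby position (Tcfl5). Each line gives the 250 bases before a RefSeq start in GRCm38.p6, 5′ to 3′ on the gene's strand. Capitals mark matches, on either strand, to 5 short motifs: ACANTGT, the core of the palindrome that DM domains bind, TGACGTCA, the cyclic AMP response element bound by CREM, GTTGCC, a core of the X-box bound by RFX factors, AACNG, the core bound by MYB proteins, and GGCGGGA, a form of the E2F site.
Sox30 (chr11:45980060-45980309, plus strand): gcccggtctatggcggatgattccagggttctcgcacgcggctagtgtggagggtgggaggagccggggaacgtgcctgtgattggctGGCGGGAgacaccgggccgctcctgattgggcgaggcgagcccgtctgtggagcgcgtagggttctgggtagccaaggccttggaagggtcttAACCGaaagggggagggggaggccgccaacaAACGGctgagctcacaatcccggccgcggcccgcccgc
Mybl2 (chr2:163054385-163054634, plus strand): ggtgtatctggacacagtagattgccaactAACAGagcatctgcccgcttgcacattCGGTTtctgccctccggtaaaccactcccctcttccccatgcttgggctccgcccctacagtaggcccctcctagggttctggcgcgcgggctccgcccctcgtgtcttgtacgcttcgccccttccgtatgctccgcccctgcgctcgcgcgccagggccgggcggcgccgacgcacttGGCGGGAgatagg
Rfx2 (chr17:56831009-56831258, minus strand): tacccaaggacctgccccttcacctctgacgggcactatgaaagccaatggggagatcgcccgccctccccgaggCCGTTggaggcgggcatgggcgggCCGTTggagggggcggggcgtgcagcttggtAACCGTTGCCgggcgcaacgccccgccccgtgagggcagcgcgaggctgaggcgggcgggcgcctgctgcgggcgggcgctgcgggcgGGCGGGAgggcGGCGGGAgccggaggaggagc
Tcfl5 (chr2:180642692-180642941, minus strand): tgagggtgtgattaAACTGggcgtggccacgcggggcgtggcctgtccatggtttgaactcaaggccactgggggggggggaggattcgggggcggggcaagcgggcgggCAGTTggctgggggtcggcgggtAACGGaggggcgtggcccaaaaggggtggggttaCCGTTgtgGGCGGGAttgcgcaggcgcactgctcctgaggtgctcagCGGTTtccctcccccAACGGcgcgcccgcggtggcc

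RefSeq windows were searched for 6 of the 8 genes, with 3 for Meig1 and none for Mybl1 or Crem. Member windows on chromosome 18, where Crem lies, were left out of the search, so the counts here do not cover Crem. No window of the 6 genes held ACANTGT, which 6.47% of 32851 windows of all genes held, and none held TGACGTCA, against 1.55% of all windows. All 6 genes had a window with the letters AACNG, but the outermost of the 3 Meig1 windows had no match. The letters were in 74.2% of all windows. They occurred 6 times before Tcfl5, 4 times before Rfx2 and 4 times in a Meig1 window. GTTGCC occurred once, before Rfx2, where it shared bases with AACNG, and 10.4% of all windows held it. GGCGGGA stood 13 bases before the Mybl2 start, 162 before that of Sox30, 75 before that of Tcfl5, and 32 and 21 before that of Rfx2, against 9.75% of all windows. These 4 windows had a GC content of 65.6% to 76.0%, against a median of 52.4% for all windows. A match is a description of letters, and no match says nothing of the factor. The peaks are in mm9 and these windows in GRCm38.p6, so whether a peak covers the printed bases was not determined.

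The libraries held 23.8 to 29.0 M reads in the table. Dmrtb1 had 0.532, 0.906 and 1.01 CPM (reads scaled to library size) in null replicates 1, 2 and 3, against 8.14, 17.4 and 9.25 CPM in wild-type replicates 1, 2 and 3. Its log2 CPM differed by -3.78 (SE 0.36, adjusted p = 0.0516 in limma), just short of the threshold of 0.05. Markers of the whole testis were present in every library, led by Dazl among spermatogonial genes (mean 578 CPM), Sycp1 among early meiotic genes (136 CPM) and Clu among Sertoli genes (1643 CPM). The leading genes of the other lists were Top2a for dividing cells (506 CPM), Hsd3b1 for Leydig cells (285), Acta2 for peritubular cells (793), Cdh5 for endothelium (60.6), Csf1r for macrophages (33.4) and Hba-a2 for red blood cells (391). Mael led the pachytene list (148 CPM) and Ace, which has a somatic form too, the spermatid list (41.0 CPM). Of the 8 spermatid genes in the table, 5 stayed under 1 CPM in all 6 libraries, among them the protamine gene Prm1 and the transition protein genes Tnp1 and Tnp2. The glycolytic Gapdhs had 5.01 to 6.31 CPM in null libraries and 5.54 to 5.57 CPM in wild-type libraries, and Spata18 reached 2.39 CPM in null replicate 2 and was under 1 CPM in the other 5. Of 11 pachytene genes in the table, 3 stayed under 1 CPM throughout, the glycolytic Pgk2 and the acrosomal and sperm surface genes Acr and Adam3.

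The RNA of all 8 genes was detected at P8, with reads in every library. Tbpl1 lay above 80.5% of the genes in the table on the mean log2 CPM scale, Mybl1 above 66.5%, Tcfl5 above 64.2%, Mybl2 above 62.5% and Crem above 55.9%. Meig1 stood above 43.5%, Rfx2 above 41.4% and Sox30 above 30.1%. These places are not corrected for transcript length, so they do not order the 8 genes by molecules. In whole testis, fewer cells of a type and less RNA per cell cannot be told apart.

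None of the 8 genes differed between genotypes past the threshold, and their groups overlapped in every case. The test was limma-trend on log2 CPM over 16634 genes with Benjamini-Hochberg adjustment, in which 1 gene passed, or 0.00601% of those tested (Gm5859, a predicted gene named after its value was seen), and an unadjusted p below 0.05 was reached by 578, or 3.47%. Of the 8 genes 0 passed in limma, with a smallest adjusted p of 0.755, and 0 reached 0.05 without adjustment. None was among the 11.1% of tested genes whose null libraries lay wholly on one side of the wild-type libraries. voom on the recovered reads also called 0 of the 8. The median difference, null minus wild type, was -0.02 log2 units over the 8 genes and 0.01 over all tested genes, with 3 values above 0 and 5 below.

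**Figure D1:**
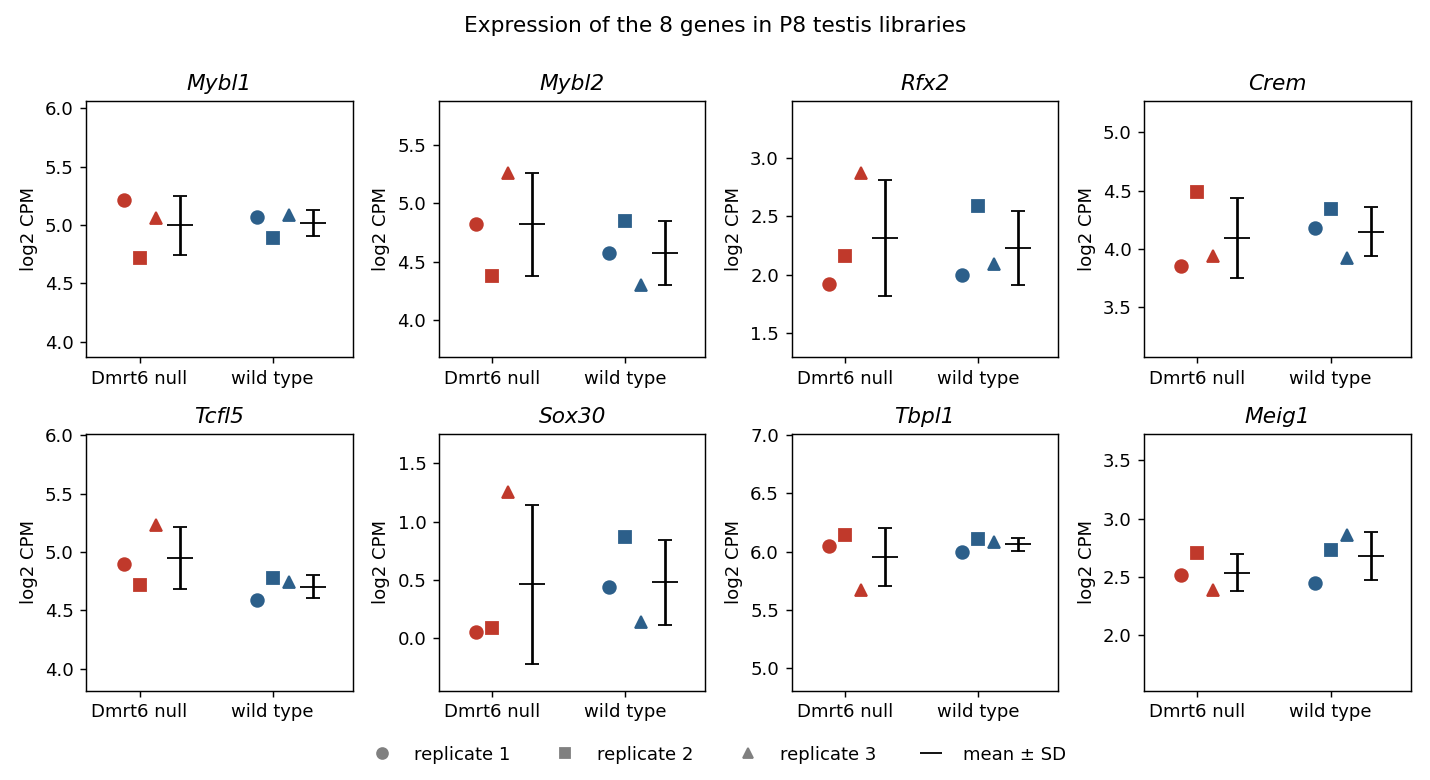
Expression of each gene in log2 CPM on the vertical axis, with the 3 Dmrt6 null libraries left of the 3 wild-type libraries; symbols mark the replicate number and black bars the mean ± SD. Every panel spans the same height, and in each the null and wild-type points overlap; Sox30 has the widest range, 1.20 log2 units over 6 libraries.

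Mybl1 (ENSMUSG00000025912, chromosome 1, 9657496 to 9690290, minus strand, mm9) encodes A-MYB, which drives pachytene genes and the precursors of pachytene piRNAs. It had 37.1, 26.4 and 33.4 CPM in null replicates 1, 2 and 3, against 33.7, 29.6 and 33.9 CPM in wild-type replicates 1, 2 and 3. The highest and the lowest of these 6 values were both in null libraries, and the wild-type values lay between them. The mean was 32.3 ± 5.45 CPM in null and 32.4 ± 2.43 CPM in wild type (SD, n = 3 each). The difference in log2 CPM was -0.02 (SE 0.15, adjusted p = 0.975 in limma), with a 95% interval for the null to wild-type ratio of 0.776 to 1.26.

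Tcfl5 (ENSMUSG00000038932, chromosome 2, 180356661 to 180377413, minus strand) encodes a basic helix-loop-helix factor of spermatocytes. It had 29.8, 26.3 and 37.7 CPM in null replicates 1, 2 and 3, against 24.0, 27.4 and 26.8 CPM in wild-type replicates 1, 2 and 3. Null replicates 1 and 3 were above all wild-type libraries, whereas null replicate 2 lay among them. The difference in log2 CPM was 0.25 (SE 0.16, adjusted p = 0.755 in limma), the largest of the 8. It was 0.10 without null replicate 3 and 0.36 without null replicate 2. The ratio interval ran from 0.924 to 1.52. At its far end the gene shares 234 bp with Col9a3 on the opposite strand, and reads of the pair cannot be told apart there if strand was not used.

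Mybl2 (ENSMUSG00000017861, chromosome 2, 162880423 to 162910424, plus strand) encodes B-MYB, which joins the MuvB complex to switch on genes of the G2 and M phases. Its values were 28.2, 20.8 and 38.3 CPM in null replicates 1, 2 and 3, against 23.8, 28.7 and 19.7 CPM in wild-type replicates 1, 2 and 3. Null replicate 3 was the highest of the 6, and the other null libraries lay within the wild-type range. The difference was also 0.25 log2 units (SE 0.24, adjusted p = 0.757 in limma), with a ratio interval of 0.811 to 1.73. It was 0.02 without null replicate 3 and 0.47 without null replicate 2. Mybl2 was the most variable of the 8 for its level: its SD over the 6 libraries, 0.35, was above that of 83.6% of 2834 tested genes within 0.5 log2 units of its mean.

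Rfx2 (ENSMUSG00000024206, chromosome 17, 56915320 to 56970431, minus strand) encodes an RFX factor that controls cilium and flagellum genes in spermatids. It had 99, 123 and 188 reads, or 3.76, 4.46 and 7.30 CPM, in null replicates 1, 2 and 3, against 95, 176 and 117 reads, or 3.99, 6.02 and 4.26 CPM, in wild-type replicates 1, 2 and 3. Null replicate 3 and wild-type replicate 2 were high and the other 4 libraries were close together. The log2 CPM difference was 0.09 (SE 0.29, adjusted p = 0.918 in limma), and it was -0.19 without null replicate 3.

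Sox30 (ENSMUSG00000040489, chromosome 11, 45793812 to 45831496, plus strand) encodes an HMG-box factor required for spermatid genes in adult testis. It had the lowest counts, with 27, 29 and 61 reads in null replicates 1, 2 and 3, against 32, 53 and 30 reads in wild-type replicates 1, 2 and 3. In CPM these were 1.03, 1.05 and 2.37 in null libraries and 1.34, 1.81 and 1.09 in wild-type libraries. Null replicate 3 and wild-type replicate 2 again stood highest. A count of 0 would have allowed up to 0.103 to 0.126 CPM, so every library was above what 3 reads are worth. The difference was -0.02 (SE 0.39, adjusted p = 0.99 in limma), and the ratio interval, 0.530 to 1.84, was the widest of the 8. It was -0.41 without null replicate 3.

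Crem (ENSMUSG00000063889, chromosome 18, 3266046 to 3337746, minus strand) encodes activator and repressor forms of the cyclic AMP responsive element modulator, and the activator form serves spermatids. The table has 1 value per gene, so the forms were not distinguished. It had 14.5, 22.4 and 15.4 CPM in null replicates 1, 2 and 3, against 18.1, 20.3 and 15.2 CPM in wild-type replicates 1, 2 and 3. The wild-type values lay inside the null range. The difference was -0.05 (SE 0.20, adjusted p = 0.929 in limma), with a ratio interval of 0.697 to 1.33. Gm6225, a predicted gene with 7 to 19 reads a library, overlaps its start for 1333 bp on the opposite strand.

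Tbpl1 (ENSMUSG00000071359, chromosome 10, 22423685 to 22451744, minus strand) encodes a relative of the TATA-binding protein that spermatids need. It had 66.2, 70.9 and 51.0 CPM in null replicates 1, 2 and 3, against 64.0, 68.9 and 67.9 CPM in wild-type replicates 1, 2 and 3. Null replicate 3 was the lowest, and the other 5 libraries lay close together. The SD over 6 libraries was 0.17 log2 units, and 0.06 without null replicate 3. The genotype difference was -0.11 (SE 0.14, adjusted p = 0.791 in limma) with a ratio interval of 0.745 to 1.15, and 0.03 without null replicate 3. Its end overlaps Slc2a12 for 407 bp on the opposite strand.

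Meig1 (ENSMUSG00000026650, chromosome 2, 3326315 to 3339920, minus strand) had 5.70, 6.52 and 5.24 CPM in null replicates 1, 2 and 3, against 5.46, 6.63 and 7.25 CPM in wild-type replicates 1, 2 and 3. The groups overlapped. The difference was -0.14 (SE 0.19, adjusted p = 0.799 in limma), with a ratio interval of 0.668 to 1.23. Meig1 was steady for its level, with an SD over 6 libraries of 0.18, above that of 18.3% of 1507 tested genes of like mean.

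**Figure D2:**
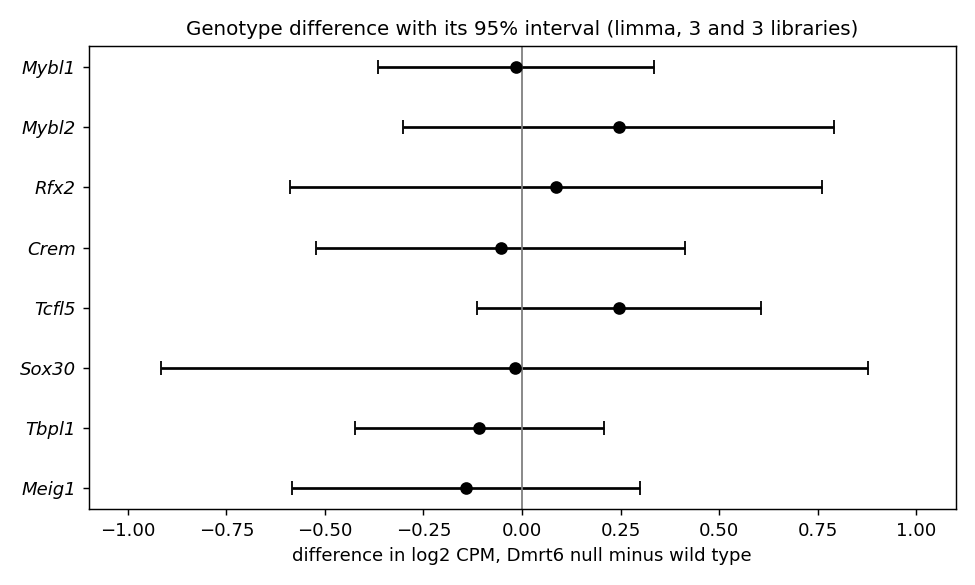
The horizontal axis gives the difference in log2 CPM, Dmrt6 null minus wild type, for the gene on each row; points are limma estimates from 3 and 3 libraries and bars are 95% intervals. All 8 bars cross 0; that of Tbpl1 is the shortest, -0.42 to 0.21, and that of Sox30 the longest, -0.92 to 0.88.

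Null replicate 3 held the highest value of 4 of the 8 genes, Mybl2, Rfx2, Tcfl5 and Sox30, and the lowest of 2, Tbpl1 and Meig1. That library stood apart in general: it was the highest for 34.5% of all tested genes and the lowest for 34.0%, and it lay at -54.3 on the main axis of variation, with the others between -1.68 and 20.2. Over the 8 genes the mean deviation from the 6-library mean was -0.09, -0.08 and 0.21 log2 units in null replicates 1, 2 and 3, against -0.09, 0.14 and -0.10 in wild-type replicates 1, 2 and 3. Some marker lists also had their extreme in that library. The 7 Sertoli genes deviated by 0.49 in null replicate 3 and -0.41 in null replicate 2, and the 5 red blood cell genes by -0.78 in null replicate 3. The 4 peritubular genes were highest in null replicate 2, at 0.68, and lowest in null replicate 3, at -0.32. Others had no extreme there: the early meiotic genes were highest in wild-type replicate 2, at 0.16, and lowest in wild-type replicate 1, at -0.16. Summed over each list, Sertoli genes came to 1887 to 2447 CPM in null and 2150 to 2315 in wild type, and red blood cell genes to 717 to 1255 CPM in null and 1477 to 1776 in wild type. The 10 genes of dividing cells, the cells that B-MYB serves, summed to 1566 to 1746 CPM in null and 1914 to 2001 CPM in wild type, so that these sums did not overlap. Their median difference was -0.26 log2 units, against 0.25 for Mybl2, and 8 of the 10 had an unadjusted p below 0.05 (3.47% of tested genes) and 8 did not overlap (11.1%). None of the 10 passed in limma after adjustment (smallest adjusted p 0.755). Other lists held such genes too. An unadjusted p below 0.05 in limma was reached by 4 of 5 red blood cell, 2 of 5 macrophage and 3 of 11 spermatogonial genes. The same numbers did not overlap, and the median differences of these lists were -0.66, -0.33 and 0.09. Leydig and endothelial lists had 1 such gene each. The part of these lists in the values of the 8 genes was not tested.

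**Figure D3:**
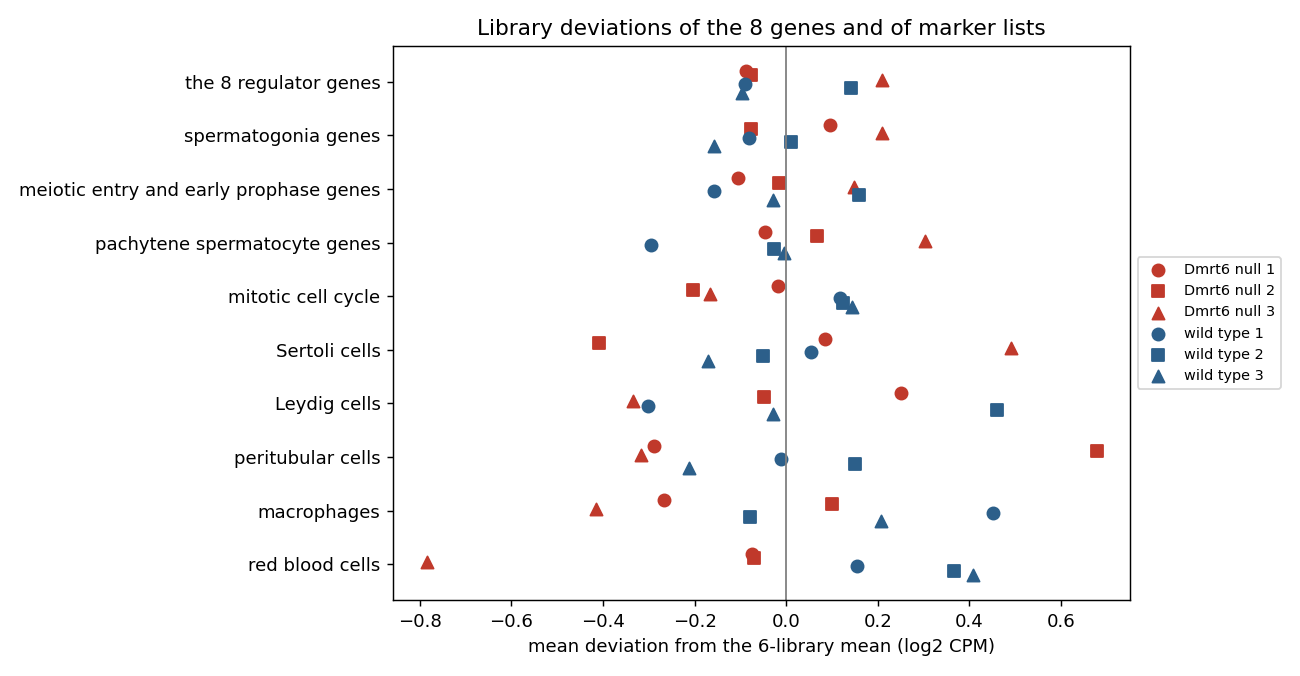
Each row is the group of 8 genes or a marker list, and each symbol 1 library: its mean deviation from the 6-library mean in log2 CPM over the tested genes of that row, red for Dmrt6 null and blue for wild type. Null replicate 3 is highest for the 8 genes (0.21) and for spermatogonial (0.21), pachytene (0.30) and Sertoli genes (0.49). It is lowest for red blood cell (-0.78), macrophage (-0.42), Leydig (-0.33) and peritubular genes (-0.32).

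Genes whose profile over the 6 libraries was most like each member were found as the smallest root mean square difference of log2 CPM after removing each gene's own mean, among 13554 named genes. For Mybl2 it was Mcm3, a subunit of the replicative helicase, at 0.06 log2 units. For Tcfl5 it was Rbm10 (0.02), for Mybl1 Scrn1 (0.04), for Tbpl1 Mitd1 (0.02) and for Meig1 Slc35b1 (0.03). For Rfx2 it was Ror2 (0.06), for Crem Slc8a1 (0.06) and for Sox30 Fmnl1 (0.09). All profiles share the same 6 libraries, null replicate 3 among them, so the likeness is a description of these libraries.

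The wider families and partners of the 8 proteins likewise gave no gene past the threshold, 0 of 33 tested. Among MYB and MuvB genes, Myb itself was at 0.53 (SE 0.44), the G2 and M phase factor gene Foxm1 at 0.21, and the MuvB core genes Lin9, Lin54 and Lin37 at -0.09, -0.11 and -0.13 log2 units. In the RFX family Rfx1 was at 0.47 (SE 0.36), Rfx5 and Rfx7 at 0.11 each and Rfx3 at -0.01. Of the TBP and TFIIA genes, Gtf2a2 was at -0.17, Taf4b at 0.15, Tbp at -0.11, and Gtf2a1 and the testis TFIID subunit gene Taf7l at 0.05 each. Spag16, whose protein binds MEIG1, was at 0.51 (SE 0.39).

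Fhl5, which encodes ACT, the testis coactivator of CREM, had the smallest unadjusted p of these genes, 0.011. It had 1.18, 1.56 and 1.20 CPM in null replicates 1, 2 and 3, against 2.06, 2.26 and 2.55 CPM in wild-type replicates 1, 2 and 3. The null libraries were all below the wild-type libraries, as they were below or above for 11.1% of tested genes. The log2 CPM difference was -0.80 (SE 0.24), with an adjusted p of 0.755 in limma. Other CREM relatives were at 0.34 for Kif17, a kinesin reported to carry ACT, 0.32 for Creb3l4 and 0.15 for Atf1. Among other late germ cell regulators the values of smallest p were 0.45 (SE 0.28) for the RNA-binding Ybx2, 0.14 for the bromodomain gene Brwd1, 0.58 for Egr4 and 0.16 for the meiotic chaperone gene Hspa2.

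DMRT6 peaks of the adult testis lay within 10 kb of the 5′ end of 5 of the 8 genes: Mybl1, Mybl2, Rfx2, Sox30 and Meig1. Such a peak was present for 27.9% of all genes listed and for 31.2% of tested genes. Within 1 kb of the 5′ end the count was 2 of 8, Mybl1 and Sox30, against 12.9% of all genes. At a peak score of at least 100, with the lowest score in the list 50.02, it was 3 of 8, Mybl1, Mybl2 and Meig1, against 14.3%. Counting any base of a peak left 5 of 8, against 28.0%, as did counting the gene body and 10 kb around it, against 40.9%. Within 50 kb it was 7 of 8, against 61.7%. Scores come from the authors' caller, and with 1 ChIP library no peak has a replicate check. A peak counted by its middle, and the 5′ end was the outer end of the gene in the table.

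Mybl1 had the most peaks of the 8 around its start. It had 3 within 10 kb, and 1.52% of all genes had at least that many. The strongest, on chromosome 1 from 9692722 to 9692963, had its middle 2552 bp upstream of the 5′ end and a score of 267, above 89.8% of all peaks. A weaker peak from 9690381 to 9690538 lay 169 bp upstream with a score of 81.4, and another from 9689248 to 9689537 lay 898 bp inside the gene with a score of 113. For all 3 the nearest 5′ end in the table was that of Mybl1. Dmrtb1 itself also had 3 peaks within 10 kb.

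The peaks of Meig1 lay inside the gene. They were on chromosome 2 from 3337619 to 3337806, 2208 bp from the 5′ end with a score of 138, and from 3333766 to 3333994, 6040 bp from it with a score of 180. At least 2 peaks within 10 kb were found for 6.32% of all genes. RefSeq gives Meig1 further starts 3519 and 4051 bp inside its outermost start in GRCm38.p6. The DNA repair gene Dclre1c starts 1483 bp upstream of Meig1 on the opposite strand. The peak nearest to that start, 3691 bp away, was the same one from 3337619 to 3337806.

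Sox30 carried a peak at its start with a score near the bottom of the list. It ran on chromosome 11 from 45793441 to 45793588, with its middle 298 bp and its near edge 224 bp upstream of the 5′ end, and its score of 51.4 was above that of 1.66% of all peaks. Another lay 23993 bp inside the gene with a score of 113. The window printed for Sox30 ends at a RefSeq start 1241 bp inside the outermost one of GRCm38.p6.

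Mybl2 had 1 peak within 10 kb and 7 within 50 kb. The nearest, on chromosome 2 from 162886689 to 162886920, lay 6381 bp inside the gene with a score of 135. A pair of peaks stood just past the end of the gene, 31770 and 32042 bp from its start, with scores of 121 and 194. The strongest of the 7, with a score of 255, lay 37278 bp upstream of Mybl2 and 55 bp from the 5′ end of Ift52, a gene of intraflagellar transport. Rfx2 had 1 peak 9125 bp inside the gene (chromosome 17, 56961231 to 56961381, score 69.2), near the edge of the 10 kb window.

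Crem, Tcfl5 and Tbpl1 had no peak within 10 kb. The nearest to Crem lay 45.3 kb upstream with a score of 70.7, and 109 bp from the 5′ end of the ubiquitin ligase gene Cul2. The nearest to Tcfl5 lay 48.8 kb upstream with a score of 192, 18444 bp from the 5′ end of Dido1. Tbpl1 had none within 400 kb, as had 6.35% of all genes; its nearest was at 411 kb. No peak lay inside the gene body of these 3 genes.

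**Figure D4:**
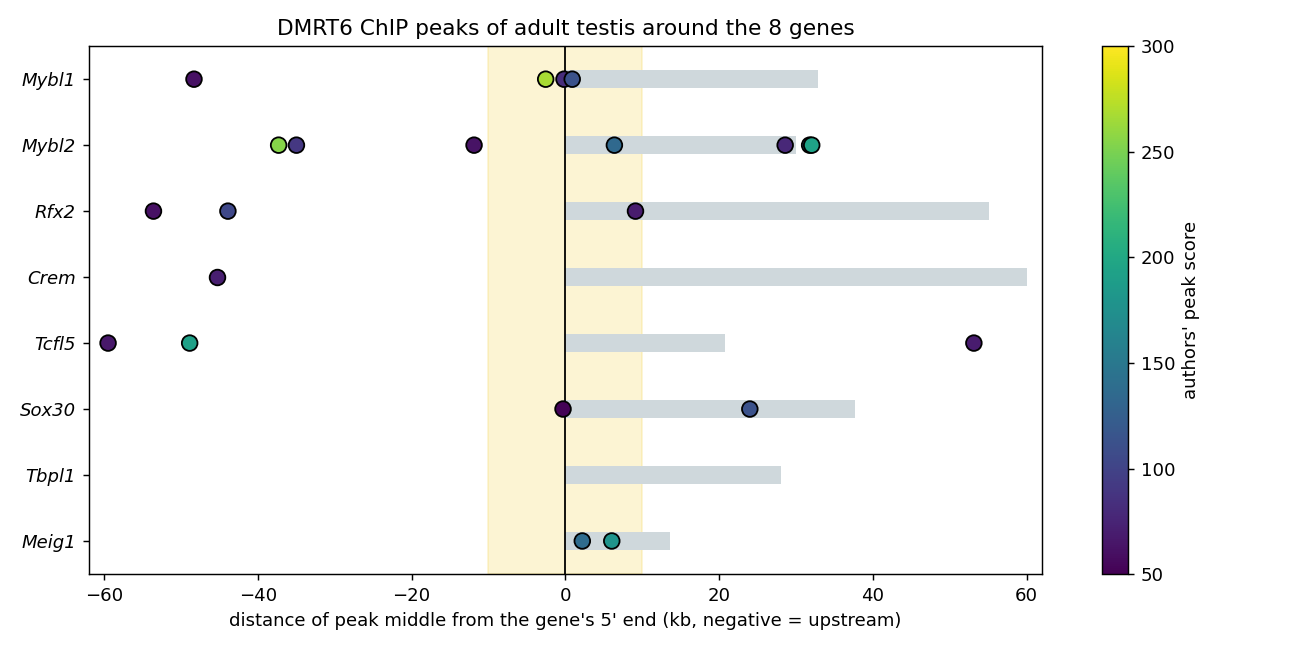
Peaks of the adult DMRT6 ChIP around each gene, drawn by the distance of the peak's middle from the gene's 5′ end in kb, negative upstream; circles are peaks coloured by the authors' score, grey bars the gene (that of Crem cut at 60 kb), and the yellow band the 10 kb window. Mybl1 has 3 circles in the band, Meig1 has 2, Mybl2, Rfx2 and Sox30 have 1 each, and Crem, Tcfl5 and Tbpl1 have none.

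Peaks were also counted near the relatives of the 8 genes. In the MYB and MuvB list 6 of 7 genes had a peak within 10 kb, with one 49 bp from the 5′ end of Lin9 and one 103 bp from that of Foxm1. In the RFX list it was 4 of 5, with peaks 18, 33 and 47 bp from the 5′ ends of Rfx1, Rfx3 and Rfx7. In the TBP and TFIIA list it was 2 of 6, Tbp at 6 bp and Gtf2a1 at 295 bp. Of the CREM relatives 1 of 5 had a peak, Atf1 at 465 bp. Of the MEIG1 partner genes 0 of 3 had one. Among the other late germ cell regulators it was 4 of 10, with peaks 52 bp from the start of Brwd1, 257 bp from Ybx2 and 463 bp from Egr4. These lists are small, and 27.9% of all genes had a peak at that distance.

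Binding and expression came from different stages. Of the 5 genes with a peak within 10 kb, the differences at P8 ran from -0.14 for Meig1 to 0.25 for Mybl2, and of the 3 without, from -0.11 for Tbpl1 to 0.25 for Tcfl5. None of the 8 passed the threshold, so the peaks had no called change to be set beside.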

How the data were processed

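The authors deposited log2 CPM in 1 table with Ensembl gene coordinates. Per the submitters' processing notes, the tools were STAR 2.3.0e, Bowtie2, Picard and edgeR and the build was mm9, with no roles given. The read counter, the annotation release and whether strand was used are not stated. Above a shared lowest value, 2 to the power of the value rose in equal steps per library. These steps gave whole reads for 100% of values (tolerance 1e-06) and a mean prior of 0.250 reads, and CPM printed here are reads times the step. The authors' scaling used sizes 0.979 to 1.01 times the table totals. Limits from a count of 0 cover counting error. The peak scores were deposited by the authors in a file named for MACS 1.4 and removal of duplicates. Their scale and the ChIP read depth are unknown.

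Genes with a mean log2 CPM of at least 0 (16634) entered limma-trend (limma 3.58.1, R 4.3.3) with genotype alone in the model. The fit was also run on simulated counts, with the same spread setting for every gene and no outlying library. Such counts cannot show how it behaves with a library like null replicate 3. Errors are SE from limma unless given as SD. Per the labels, the 3 libraries in each genotype are biological replicates. An exact test of 3 against 3 cannot go below p = 0.1. Same-numbered libraries of the genotypes did not deviate together (correlations -0.09, -0.22 and -0.04), so the numbers were not taken to pair them. No transcript lengths were used, so places and ranks by CPM or reads do not compare molecules between genes. Peaks were counted in Python 3.11.15.

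The 8 genes, the lists of relatives and markers, the tests and the alternatives were chosen with earlier results of these data known. Relatives named are those of smallest p, up to 4 per list, and those with a peak within 1 kb; 1 is not reported here. Of each marker list the gene of highest CPM is named. The other spermatid and pachytene genes were named after their values were seen. Alternatives were other filters, scalings, array weights, a pseudocount of 1 CPM, voom on the recovered reads, a replicate term, each library left out, other windows and a score of at least 100.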

Additional observations from a re-analysis of the deposited data

How the results depend on the processing

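None of the 8 genes passed the threshold under any of the 14 alternatives to the limma fit (Sox30 had 13, as the stricter filter, a mean of 2, removed it). Mybl2, Tcfl5 and Meig1 kept the sign of their difference in all of them. The differences of Mybl2 and Tcfl5 were 0.02 and 0.10 without null replicate 3, and 0.47 and 0.36 without null replicate 2. Without null replicate 2, Tcfl5 had an unadjusted p of 0.048 (adjusted p = 0.326 in limma). In that fit 2547 of 16634 tested genes had an unadjusted p below 0.05. The other 5 had differences near 0 that changed sign. Leaving out each library in turn gave -0.12 to 0.12 for Mybl1, -0.19 to 0.29 for Rfx2, -0.25 to 0.065 for Crem, -0.41 to 0.19 for Sox30 and -0.20 to 0.033 for Tbpl1; the cause was not tested. With array weights, whose estimate stopped before it converged, Mybl1 was at 0.21, Rfx2 at -0.38, Crem at -0.31, Sox30 at -0.49 and Tcfl5 at 0.17. The weights were 19.3, 0.346 and 0.153 for null replicates 1, 2 and 3, so the null side rested largely on null replicate 1. They were 0.742, 1.46 and 0.904 for wild-type replicates 1, 2 and 3. Those 5 genes had an unadjusted p below 0.05 in that fit, as had 4716 of 16634 tested genes. Their smallest adjusted p was 0.131 in limma. With log2(CPM + 1) Sox30 was at 0.0075. The count of genes past the threshold was 1 as reported. It was 3 with no filter, 0 with the stricter filter (420 at an unadjusted p below 0.05 in limma), 2 with quantile normalization, 3 with median centring and 136 with array weights. Leaving out each library in turn gave 0 (without null replicate 1) to 5 (without null replicate 3). Dmrtb1, just short of the threshold in the report, passed with no filter, quantile normalization, median centring or the replicate block, and without null replicate 3. With the replicate number as a block it was 2, and no null library correlated best with its own number. Genes with a peak were 5 of 8 as reported, 2 within 1 kb, 3 at a score of at least 100 and 7 within 50 kb. With 3 libraries a group, the interval of the null to wild-type ratio ran from 0.745 to 1.15 for Tbpl1, the narrowest, and from 0.530 to 1.84 for Sox30, the widest.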
